A study of Mus musculus with 12 samples.

Results

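The interleukin 1 (IL-1) family in the paw epidermis was described here by 9 genes, taken by symbol from the 32285 genes counted in each mouse: the ligands Il1a, Il1b, Il18 and Il33, the antagonist Il1rn, the receptors Il1r1, Il1r2 and Il1rap, and the protease Casp1. All 9 were found in each of the 12 count tables. Wild-type C57BL/6J mice were kept for 10 weeks on a regular diet (RD, with 11% fat) or on the high-fat EnvigoTD88137 (HFD, with 42% fat), and were 16 to 18 weeks of age. The glabrous hind paw epidermis was peeled after overnight dispase, dissociated with TrypLE and loaded on the 10x Genomics droplet system, with 1 library per mouse and 3 mice on each diet in each sex. No drug was given and no allele was altered in any group, so that RD mice of the same sex are the only controls.

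Cytokines of this family are made as precursors by barrier cells and by resident immune cells, and bind receptors that signal through MyD88 to NF-kB. IL-1α and IL-33 act when damaged cells release them, while IL-1β and IL-18 become active after cleavage by caspase-1, which assembles on inflammasomes through the adaptor ASC (gene Pycard). In skin, keratinocytes are known as a store of IL-1α and IL-18, and the balance of agonists, the antagonist and the decoy receptor sets how far a local signal travels.

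Transcripts were tagged in droplets with unique molecular identifiers (UMIs), and the counts used here are counts of these tags. Each mouse gave between 134449247 and 194673581 UMIs, and 126375 cells of 140392 barcodes passed the filters. Before filtering, any pair of libraries shared at most 0.564% of the barcodes of the smaller library. Cells were clustered anew within each sex without the genes of the family and its pathway, and classes were named from marker genes, because the study's own cell labels were not used here. A Langerhans cell-like (LC-like) class carried all 8 of its markers (Cd207 and antigen presentation genes among them) in 1345 male and 2153 female cells, and a T cell-like class all 10 of its markers in 224 and 339 cells. The keratinocyte classes were basal, proliferating, suprabasal or spinous, terminally differentiated (named from late envelope genes such as Lor and the Lce1 genes) and migratory. Another 2216 male and 1749 female cells took no class name and are left out of the orders of classes given here. The headers name Cell Ranger 6.1.0 for every male mouse and 7.2.0 for every female mouse, so that sex and counting software cannot be told apart, and levels of males and females are given side by side without comparison.

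The LC-like class held 1 subcluster with keratins of keratinocytes, 281 cells in males (20.9% of the class, 50.4% of its UMIs, keratins at 90.5% of the keratinocyte level) and 340 in females (15.8%, 33.4% and 73.6%). Levels in LC-like cells are therefore given with and without these cells. A level is given as counts per 1000000 (CPM), the UMIs of a gene scaled to all UMIs of that class in that mouse, as mean ± SD over the 6 mice of a sex. Levels are compared between classes for 1 gene at a time, not between genes.

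Il1a and Il1b are neighbors on chromosome 2 of GRCm38, both on the minus strand, at 129299610-129309972 and 129364570-129371139, with 54.6 kb between them. Il1rn lies on the same chromosome at 24336853-24351494 on the plus strand. The other members are also on the plus strand: Il1r2 and Il1r1 on chromosome 1 at 40074079-40125231 and 40225080-40317257, Casp1 and Il18 on chromosome 9 at 5298517-5307265 and 50554827-50581840, Il1rap on chromosome 16 at 26581704-26730117 and Il33 on chromosome 19 at 29925114-29960718. Annotated genes on the opposite strand overlap Il18 (Tex12 and Bco2), Il1a (Gm14023), Il1b (Il1bos), Il1r2 (Gm16894) and Il1rap (Gm20319), and none overlaps a member on its own strand. Il1a, Il1b and Il1rn, all on chromosome 2, had their highest levels in 3 different classes, and the bases before their start sites are shown for that reason. RefSeq entries for GRCm38.p6 held 13 start sites of the 9 genes, and the 250 bases before each were searched on both strands for AP-1 (TGANTCA, in 6.75% of 32851 mouse promoters of that length), PU.1 (GAGGAAGT, 2.44%), NF-kB (GGGA and TTTCC with any base between them, 0.356%), C/EBP (TTGCNNCAA, 1.74%) and a TATA box (TATAAA, 12.4%). Capitals mark the matches, and a match describes letters, not a bound site.
Il1a, chr2:129309973-129310222, minus strand: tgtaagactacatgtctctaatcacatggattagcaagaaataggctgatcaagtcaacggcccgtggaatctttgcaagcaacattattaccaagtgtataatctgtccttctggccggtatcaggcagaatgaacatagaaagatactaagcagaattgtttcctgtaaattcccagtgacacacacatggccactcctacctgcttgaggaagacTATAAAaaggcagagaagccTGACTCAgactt
Il1b, chr2:129371140-129371389, minus strand: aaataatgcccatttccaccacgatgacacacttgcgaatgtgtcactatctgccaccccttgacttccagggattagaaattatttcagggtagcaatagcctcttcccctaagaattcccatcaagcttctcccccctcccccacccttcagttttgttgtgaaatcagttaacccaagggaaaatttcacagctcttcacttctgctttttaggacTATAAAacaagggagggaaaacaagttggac
Il1rn, first start site, chr2:24336610-24336859, plus strand: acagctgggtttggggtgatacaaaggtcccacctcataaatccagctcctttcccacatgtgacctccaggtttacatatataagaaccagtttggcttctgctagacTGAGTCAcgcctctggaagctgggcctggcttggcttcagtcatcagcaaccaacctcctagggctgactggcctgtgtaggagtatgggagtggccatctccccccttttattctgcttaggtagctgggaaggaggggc
The Il1a sequence held TATAAA at 32 to 27 and TGACTCA at 12 to 6 bases before the start, Il1b held TATAAA at 31 to 26, and Il1rn held TGAGTCA at 141 to 135. No PU.1, NF-kB or C/EBP letters were found before any of the 13 start sites, and none of the 5 motifs before those of Il1r1, Il1r2, Il1rap and Casp1.

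**Figure D1:**
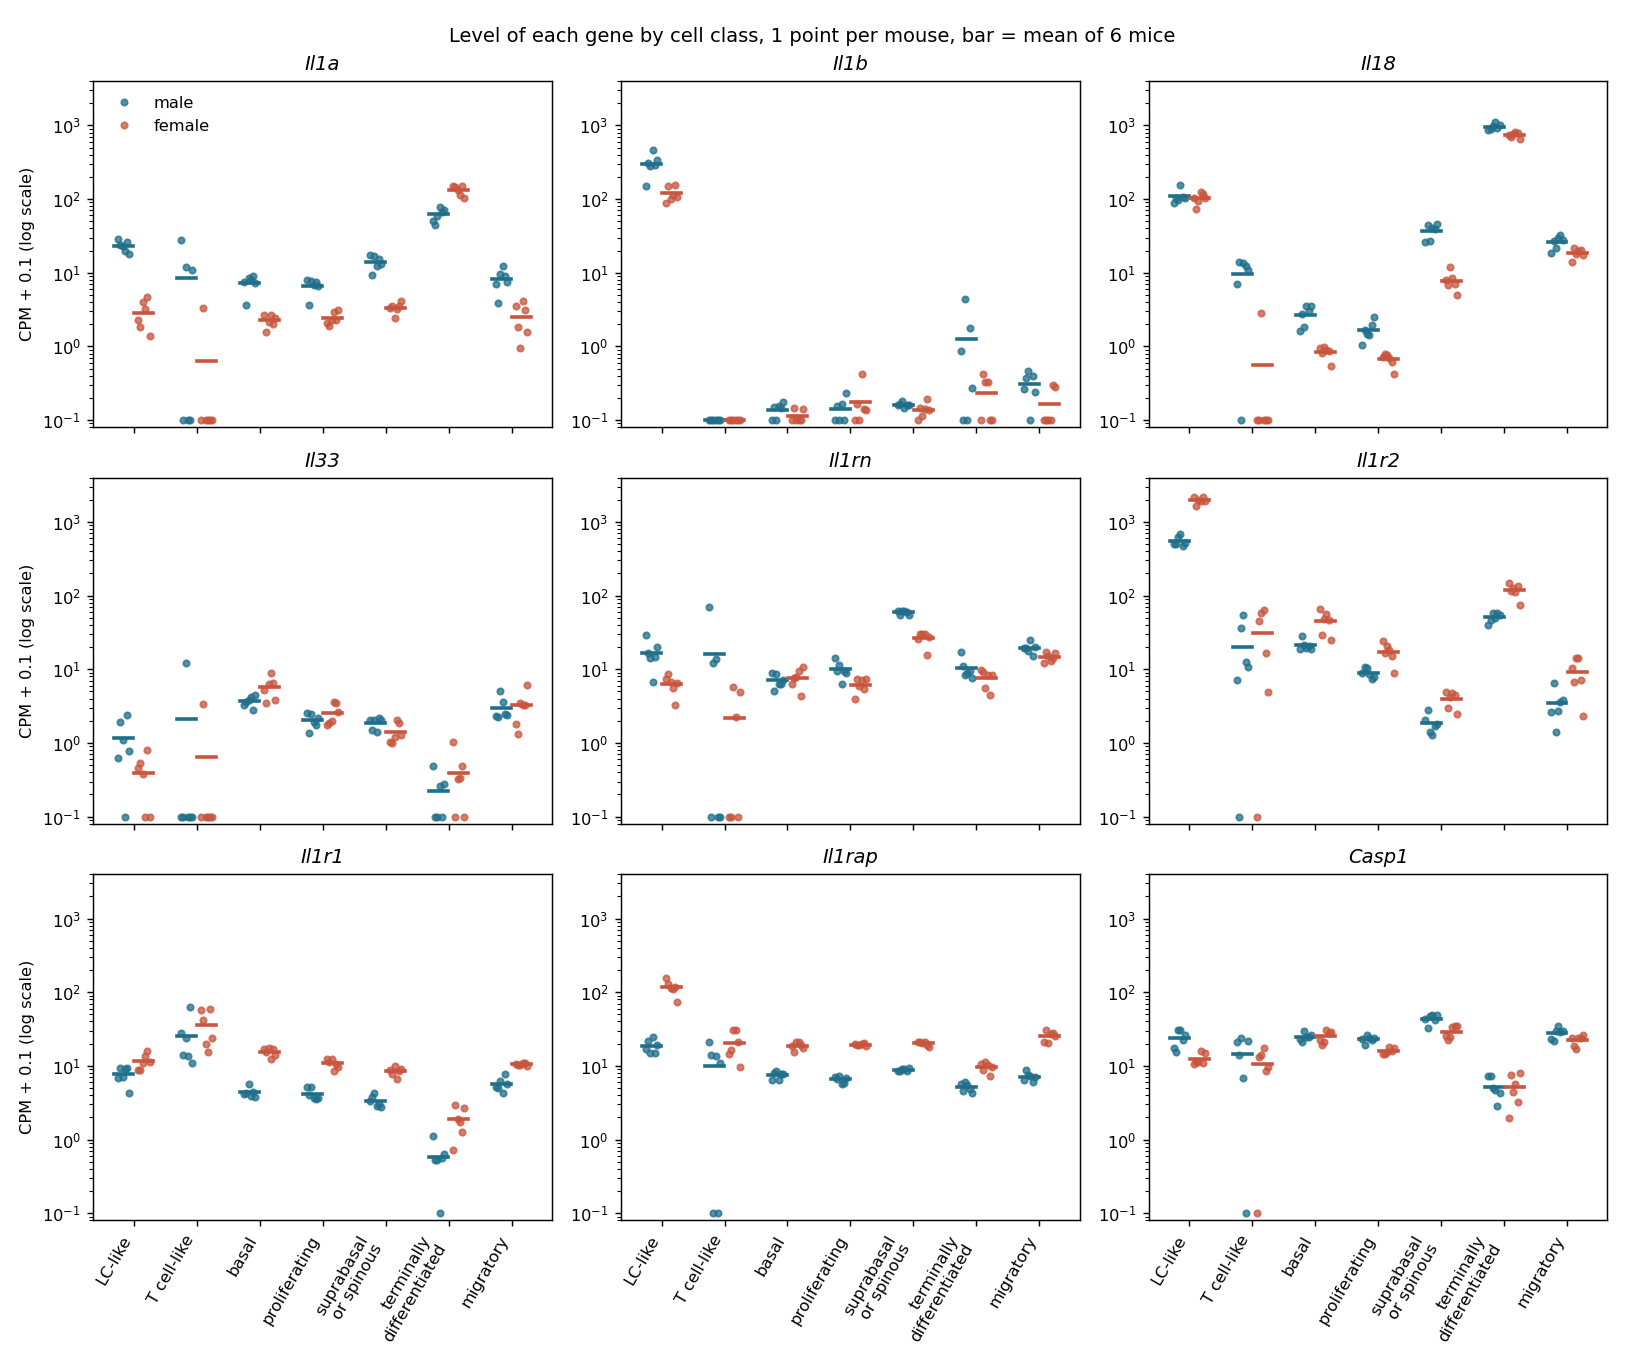
Level of each of the 9 genes in 7 cell classes, in CPM plus 0.1 on a log axis, with 1 point per mouse (blue males, red females) and a bar at the mean of 6 mice. Il1b and Il1r2 were highest in LC-like cells, Il18 and Il1a in terminally differentiated keratinocytes, and Il1rn and Casp1 in suprabasal or spinous keratinocytes.

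To determine which cells make the ligands, levels were ordered over the 7 classes. Il18 was highest in terminally differentiated keratinocytes in both sexes, at 963 ± 90.2 CPM in males and 741 ± 60.7 CPM in females (SD, n = 6). LC-like cells were second at 109 ± 24.3 and 103 ± 17.7 CPM, and the ranges of the 6 mice in these first and second classes did not overlap in either sex. Terminally differentiated cells held 66.0% of all Il18 UMIs of males and 72.7% of those of females, although they numbered only 1879 and 1300 cells.

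Cells thinned to 2000 UMIs each gave the same contrast: at least 1 Il18 UMI was found in 72.3% ± 2.65 of terminally differentiated cells and 0.621% ± 0.273 of basal cells in males, and in 62.0% ± 2.85 and 0.118% ± 0.0734 in females (SD, n = 6). Before thinning the shares were 95.0% and 2.40% in males and 90.4% and 0.707% in females. Median UMIs per cell ranged over the male mice from 10598 to 25727.5 in terminally differentiated and from 4418 to 9827 in basal cells, and over the female mice from 12599.5 to 16439 and from 6912 to 10659.

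Among suprabasal or spinous cells Il18 was uneven. The male class averaged 37.0 ± 8.45 CPM, but 1 of its clusters (led by Il1f6, Cmtm8 and Slc15a1) stood at 239 CPM while the other 3 were at 1.57 to 1.88 CPM. In females the class averaged 7.74 ± 2.31 CPM, with 27.5 CPM in the cluster led by Serpinb3a and under 1 CPM in the others. Both clusters also carried more terminal markers than the other suprabasal clusters, 6 of 10 in males and 5 of 10 in females.

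Il18 in LC-like cells was higher without the cells with keratins, where its level was 173 ± 20.4 CPM in males and 134 ± 21.5 CPM in females, against 39.2 ± 12.1 and 38.8 ± 7.57 CPM within them. The 5 envelope genes Lor, Lce1a1, Lce1b, Lce1c and Lce1m measured the RNA of terminally differentiated cells in the remaining LC-like cells, at 0.389% of their own level in males and 0.0596% in females. At those shares 3.74 and 0.438 CPM of Il18 would come with it. Measured and carried amounts were close together in male basal cells (2.60 CPM measured, 2.03 CPM at the marker share) and in male proliferating cells (1.58 and 1.57 CPM).

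Il1a, the precursor that is active without cleavage, was also highest in terminally differentiated keratinocytes, at 61.7 ± 12.8 CPM in males and 132 ± 20.7 CPM in females. The next classes, LC-like in males (23.0 ± 3.72 CPM) and suprabasal or spinous in females (3.26 ± 0.551 CPM), lay outside the range of the first. The larger suprabasal or spinous class held 56.3% of the Il1a UMIs of males and 25.6% of those of females, where it held 53.8% and 48.0% of all UMIs. With up to 10% mitochondrial UMIs allowed, the terminally differentiated level in males was 40.5 CPM. Without the cells with keratins, LC-like cells had 30.8 ± 6.41 CPM in males and 2.44 ± 2.03 CPM in females.

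Il1b was counted almost entirely in LC-like cells. They held 96.9% of its UMIs in males (2513 UMIs in these cells) and 98.3% in females (2090 UMIs), at 304 ± 99.2 and 119 ± 27.3 CPM. Without the cells with keratins the levels were 490 ± 111 and 157 ± 35.2 CPM, and with called doublets removed from all cells they were 473 and 157 CPM. No keratinocyte class had a mean above 1.15 CPM in males or 0.130 CPM in females. In male terminally differentiated cells RD replicate 3 reached 4.25 CPM from 20 UMIs, and the 38 UMIs of that class lay in 7 cells. T cell-like cells had 0 of 690767 UMIs in males and 0 of 1711268 in females, which allows up to 4.34 and 1.75 CPM, so that a low level there was not detectable at this depth. Such limits cover counting error only.

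After thinning to 2000 UMIs, 24.0% ± 2.44 of male and 8.40% ± 1.88 of female LC-like cells had an Il1b UMI (SD, n = 6), against 0.0114% and 0.00705% of basal cells. Unthinned shares were 31.6% and 13.3% of LC-like cells, whose median UMIs per cell ranged over mice from 2826 to 5607.5 in males and from 5760.0 to 7776 in females. Neutrophil RNA was near 0 in the LC-like class: the sum of 6 neutrophil markers was 0 to 3.65 CPM per mouse, with Retnlg, Csf3r, Ly6g and Mmp8 at 0 in all 4 groups. Macrophage markers (5 of 6 with UMIs in males, with Fcgr1 at 0, and 6 of 6 in female RD and 5 of 6 in female HFD mice) summed to 334 to 711 CPM in males and 163 to 249 CPM in females, and their part in the Il1b level was not tested.

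Il33, the nuclear alarmin, was low. Basal keratinocytes were first with 3.58 ± 0.603 CPM in males and 5.62 ± 2.01 CPM in females, from 467 and 943 UMIs, but no neighboring pair in the order of classes was separated beyond the range of the mice in either sex. In terminally differentiated cells 5 and 6 UMIs were counted.

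The antagonist Il1rn, which occupies the receptor without signaling, was highest in suprabasal or spinous keratinocytes, at 59.2 ± 3.68 CPM in males and 26.4 ± 5.62 CPM in females. This class held 87.2% and 77.1% of all Il1rn UMIs, against 53.8% and 48.0% of the UMIs of all genes. In males it stood apart from the migratory class (19.5 ± 3.27 CPM), and in females its range met that of the migratory class (14.7 ± 1.86 CPM). When up to 10% of mitochondrial UMIs was allowed, cells were clustered differently and the terminally differentiated class came first for Il1rn in males, with 51.8 CPM in the suprabasal or spinous class. Within the class, Il1rn was uneven like Il18 but not in the same proportions: the male clusters were at 6.87, 30.5, 92.4 and 161 CPM and the female clusters at 3.80, 12.2 and 76.0 CPM. The Il1rn of LC-like cells, 16.8 ± 7.30 CPM in males, was 2.14 ± 1.97 CPM without the cells with keratins and 31.8 ± 9.19 CPM within them. In females the 3 values were 6.26 ± 1.86, 4.62 ± 2.70 and 9.30 ± 4.32 CPM.

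Il1r2, the decoy receptor that binds IL-1 and lacks a signaling domain, had its highest level in LC-like cells, at 553 ± 79.3 CPM in males and 1974 ± 192 CPM in females. Without the cells with keratins it was 897 ± 72.4 and 2553 ± 144 CPM. LC-like cells held 41.1% of its UMIs in males and 70.8% in females. Terminally differentiated keratinocytes were second (51.4 ± 7.29 and 119 ± 25.8 CPM) and basal keratinocytes followed (21.0 ± 3.63 and 45.2 ± 15.8 CPM), while suprabasal or spinous cells were lowest at 1.75 ± 0.553 and 3.86 ± 1.00 CPM. The order along keratinocyte stages was therefore high at both ends and low in the middle. By the level of Cd74, LC RNA in terminally differentiated cells amounted to 0.176% and 0.315% of the LC-like level, which would carry 0.933 and 6.16 CPM of Il1r2. In basal cells the corresponding amounts were 0.0727 and 0.410 CPM.

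Besides the keratin subcluster, LC-like cells held a main subcluster (1008 male and 1738 female cells), a small cycling one (40 and 33 cells) and a small one led by Ccr7, Fscn1 and Ccl17 (16 and 42 cells), genes known from dendritic cells that leave the epidermis. The values that follow are pooled over mice and carry no test. Il1b was 505 CPM in the main, 324 CPM in the cycling and 240.3 CPM in the Ccr7 subcluster of males, and 155, 125 and 149 CPM in females. Il18 was 179, 115 and 42.4 CPM in males and 141, 113 and 17.3 CPM in females, where the Ccr7 values came from 3 and 5 UMIs. Il1r2 was 940.0, 508 and 325 CPM in males and 2641, 1562 and 809 CPM in females. In both sexes the Ccr7 subcluster was therefore the lowest of the 3 for Il18 and Il1r2, and for Il1b only in males.

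**Figure D2:**
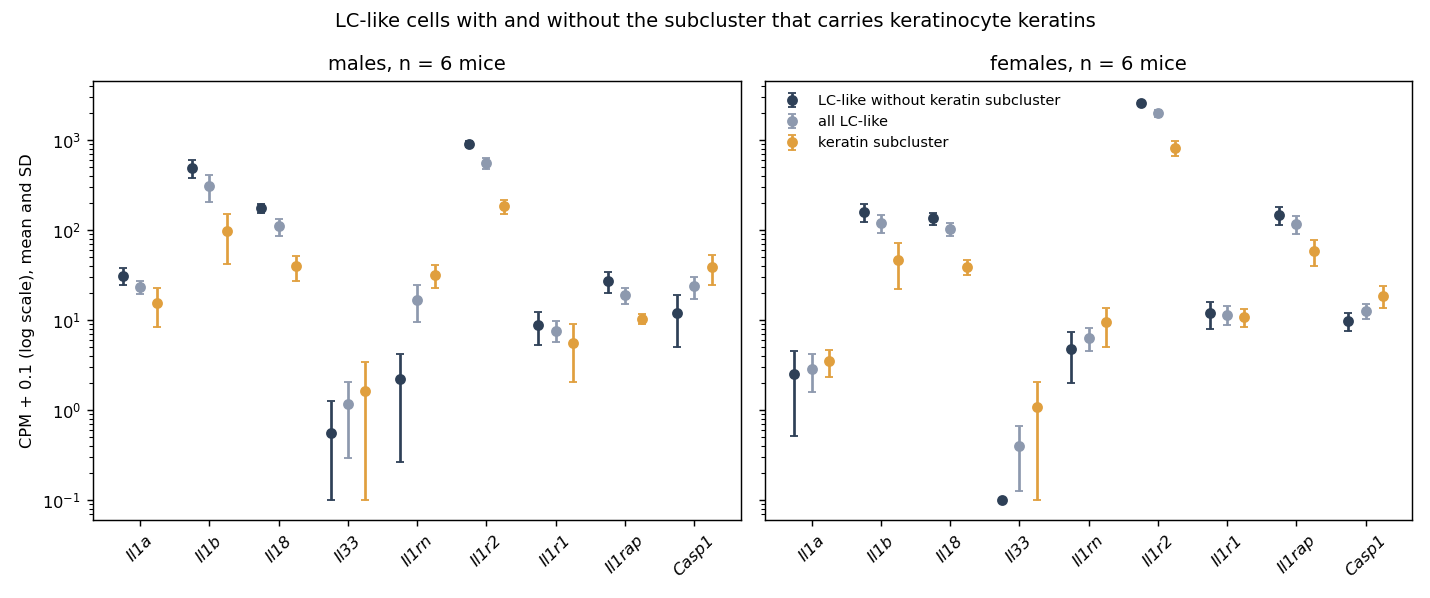
Mean and SD over 6 mice (CPM plus 0.1, log axis) of each gene in all LC-like cells, in LC-like cells without the keratin subcluster, and in that subcluster, for males (left) and females (right). Il1b, Il18, Il1r2 and Il1rap were higher without the subcluster and lower within it, whereas Il1rn and Casp1 went the other way, and bars that would pass below 0 CPM end at 0.1.

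Il1r1, the receptor that signals, had its highest mean in T cell-like cells, 25.4 ± 19.2 CPM in males and 36.2 ± 19.4 CPM in females, from only 16 and 54 UMIs. In males all 6 mice lay above the LC-like range (7.56 ± 2.00 CPM), and in females the range met that of basal cells (15.4 ± 1.98 CPM). Terminally differentiated cells, which had the most Il18 and Il1a, were lowest for Il1r1 at 0.475 ± 0.323 and 1.78 ± 0.847 CPM, apart from the next class in both sexes.

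Il1rap, the accessory chain shared by the receptors for IL-1, IL-33 and IL-36, was highest in LC-like cells at 18.6 ± 3.83 CPM in males and 117 ± 26.5 CPM in females. Only the female value stood apart from the next class (migratory, 25.2 ± 3.94 CPM). Other classes ranged from 5.06 to 9.87 CPM in males and from 9.56 to 25.2 CPM in females, lowest in terminally differentiated cells. Without the cells with keratins, LC-like cells had 26.8 ± 7.05 and 147 ± 32.3 CPM.

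Casp1, the protease that cleaves the precursors of IL-1β and IL-18, was spread over all classes. Suprabasal or spinous cells were first (43.7 ± 5.97 CPM in males and 29.1 ± 5.61 CPM in females), and the ranges of neighboring classes overlapped throughout the order. Terminally differentiated cells had the lowest means, 5.12 ± 1.70 and 5.00 ± 2.34 CPM, so that the class with the highest Il18 had the lowest Casp1. LC-like cells without the keratin subcluster had 11.98 ± 7.11 CPM in males and 9.66 ± 2.29 CPM in females.

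The 3 genes most like each member among 10856 genes were named by Pearson's r over 14 points, the means of 7 classes in each sex of log2(CPM + 1). The sexes were pooled and not centered apart. A high r can therefore come from the order of classes, from a level that differs between the male and female tables, or from both, and these were not told apart. These points share libraries and classes, so that r is a description. For Il18 they were Sdcbp2 (0.970), Slc35e4 (0.966) and Prdm1 (0.965), and for Il1a Usp2 (0.947), Lce1e (0.934) and Kprp (0.928), of which Lce1e and Kprp encode proteins of the cornified envelope. Il1b was most like C1qa (0.997), P2rx2 (0.996) and Apol7c (0.996), and Il1rn most like Clu (0.967), Slc10a6 (0.928) and Mfsd5 (0.926). The decoy receptor Il1r2 was nearest to Il10rb (0.905), Mcl1 (0.903) and Ehd1 (0.893), Il1rap to Cacna1d (0.951), Dram2 (0.942) and Rnf24 (0.941), and Il1r1 to Atg7 (0.985), Zc3h13 (0.979) and Txndc11 (0.975). Il33 was nearest to Marveld3 (0.963), Ctdsp2 (0.953) and 5930430L01Rik (0.935), and Casp1 to Chmp1a (0.964), Lig3 (0.961) and Dynlt3 (0.955).

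To explore the effect of HFD, UMIs were summed for each mouse and class, and HFD was compared with RD within each sex with the quasi-likelihood test of edgeR, with p adjusted by Benjamini-Hochberg over all genes tested in a class. Nothing in the labels ties mice to litters or cages. The p of this test sets a diet difference against the spread between libraries, and with 1 library per mouse that spread holds mouse and preparation together. Groups said to overlap or not are 3 against 3 mice. The share of all genes whose diets do not overlap is not given, so that such cases describe the values and set no gene apart. Of 63 pairs of a member and a class, 46 in males and 47 in females had enough UMIs to be tested. In females 2 pairs were called at an adjusted p under 0.05, both of them Casp1 and both higher on HFD, where 1.09% of all gene and class pairs were called. At an unadjusted p under 0.05 there were 10 of the 47 female pairs, against 15.1% of all pairs, and DESeq2 called 3, against 2.54%. In males edgeR called 0 pairs, where 0.0561% of all gene and class pairs were called. At an unadjusted p under 0.05 there were 11 of the 46 male pairs, against 9.6% of all pairs, and DESeq2 called 2, against 1.06%. Alternatives with doublets removed, with up to 10% mitochondrial UMIs or with family genes kept clustered the cells anew. Class membership changed with them, and its part in their results was not tested.

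In female basal keratinocytes Casp1 was 22.6, 19.1 and 20.9 CPM in the RD mice and 30.4, 28.3 and 28.6 CPM in the HFD mice. All HFD mice were above all RD mice. The log2 fold change was 0.48 (SE 0.083, adjusted p = 0.0374), in a class where 0.967% of genes were called. In female suprabasal or spinous keratinocytes the RD mice had 25.6, 22.1 and 24.5 CPM and the HFD mice 33.7, 34.4 and 34.2 CPM, again without overlap, for a log2 fold change of 0.46 (SE 0.067, adjusted p = 0.0205) in a class with 2.78% of genes called. The basal call was lost when female RD replicate 1, 2 or 3 or HFD replicate 1 or 3 was left out, and the suprabasal call without RD replicate 1, 2 or 3 or HFD replicate 3, with adjusted p up to 0.182 and 0.0958 and log2 fold changes of 0.42 to 0.53 and 0.41 to 0.49. The replicate number as a block ended the basal call as well (adjusted p = 0.0861) and kept the other (adjusted p = 0.0309).

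Casp1 in other female classes did not pass the test. Proliferating cells had 14.3, 14.5 and 15.1 CPM on RD and 17.8, 16.0 and 17.3 CPM on HFD, separate groups with a log2 fold change of 0.19 (SE 0.088, adjusted p = 0.259). In males, basal cells had 23.3, 21.0 and 29.3 CPM on RD and 24.7, 24.4 and 25.9 CPM on HFD, which overlapped (0.08, SE 0.11, adjusted p = 0.936). The male suprabasal or spinous cells had 43.3, 32.8 and 47.0 CPM on RD and 48.7, 41.9 and 48.3 CPM on HFD, also overlapping (0.23, SE 0.12, adjusted p = 0.553). The difference between the sexes in the diet effect on Casp1 did not pass the interaction test (basal -0.42, SE 0.14, adjusted p = 0.348).

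**Figure D3:**
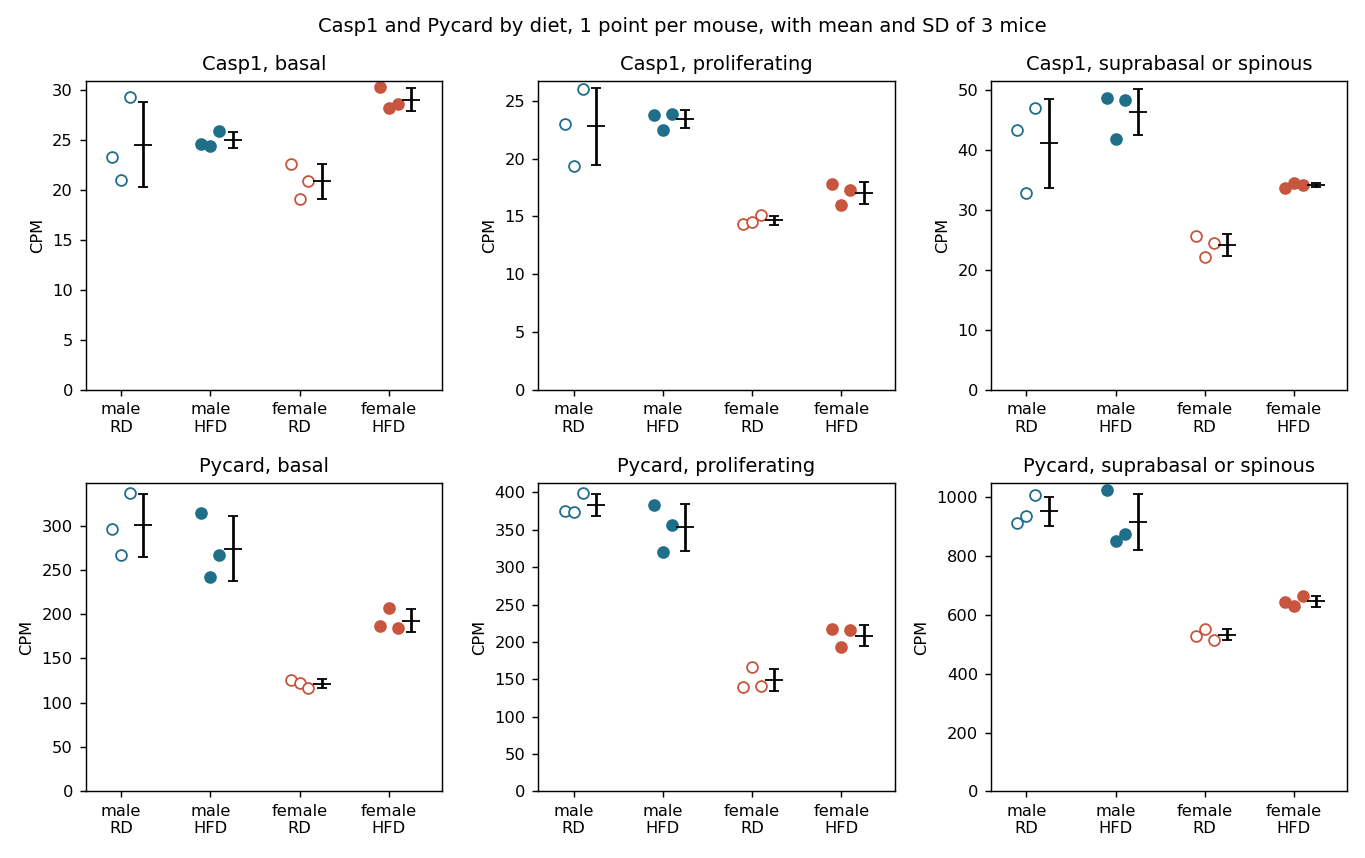
Casp1 (top) and Pycard (bottom) in basal, proliferating and suprabasal or spinous keratinocytes, in CPM from 0, with 1 point per mouse and the mean and SD of 3 mice beside each group. In females the HFD points lie above the RD points in all 6 panels, and adjusted p was under 0.05 in 3 of them (basal Casp1, suprabasal or spinous Casp1 and basal Pycard). Both genes are shown because they were called, the panels come from the same mice, and the share of all genes that lie this way is not given.

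Pycard, which encodes the ASC adaptor that joins caspase-1 to an inflammasome sensor, was called in female basal cells with the same direction. The RD mice had 126, 122 and 116 CPM and the HFD mice 187, 207 and 184 CPM, with a log2 fold change of 0.66 (SE 0.067, adjusted p = 0.0138). The call was lost without female RD replicate 1, 2 or 3 or HFD replicate 1, with adjusted p up to 0.0869. In proliferating cells (140.1, 166 and 141 against 217, 193 and 215 CPM, 0.46, SE 0.0996) adjusted p was 0.0507, and in suprabasal or spinous cells (528, 553 and 516 against 642, 630.1 and 665 CPM, 0.24, SE 0.072) it was 0.105. Male basal cells overlapped at 296, 267 and 337 CPM on RD and 314, 242 and 266 CPM on HFD.

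In the edgeR test set out above the ligands did not pass in any class, and alternatives that called 1 of them are given with its values. Il18 in LC-like cells of males was 87.6, 104 and 98.5 CPM on RD and 157, 107 and 102 CPM on HFD, where HFD replicate 1 was highest and the groups overlapped (0.30, SE 0.18, adjusted p = 0.885). Leaving out HFD replicate 1 took the log2 fold change to 0.086. In females it was 104, 73.8 and 94.8 CPM on RD and 123, 118 and 103 CPM on HFD (0.32, SE 0.14, adjusted p = 0.534), overlapping by 1 mouse of each group, with a log2 fold change of 0.19 when RD replicate 2 was left out. Without the cells with keratins the diets did not overlap in either sex: males had 166, 179 and 136 CPM on RD and 194, 184 and 179.9 CPM on HFD, and females 132, 101 and 127 CPM on RD and 167, 145 and 135 CPM on HFD. The log2 fold changes were then 0.19 in males and 0.29 in females and did not pass the test, with adjusted p of 0.774 and 0.324.

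Il18 had estimates of opposite sign in the sexes in 4 keratinocyte classes and of the same sign in migratory cells (0.45 in males and 0.09 in females). In males the 4 estimates were 0.79 in basal, 0.55 in proliferating, 0.43 in suprabasal or spinous and 0.57 in terminally differentiated cells, and in females -0.28, -0.46, -0.43 and -0.19 in the same order, with no adjusted p below 0.133. Without male RD replicate 2 the basal value was 1.05 and the suprabasal or spinous value 0.70, both called (adjusted p = 0.0296 and 0.0109), and the basal value was also called without the low-count filter (adjusted p = 0.0215). With up to 10% mitochondrial UMIs the male suprabasal or spinous value fell to 0.17 (adjusted p = 0.861) and the migratory value to 0.11. In terminally differentiated cells of females the estimate turned to 0.032 with doublets removed and to 0.034 without the TMM factors. The interaction gave 1.04 (SE 0.36), 0.98 (SE 0.43), 0.85 (SE 0.32) and 0.86 (SE 0.34), none with an adjusted p below 0.158. The suprabasal or spinous interaction was called without male RD replicate 2 (1.14, adjusted p = 0.0324) and without the filter (adjusted p = 0.0283), and the terminally differentiated one without female RD replicate 2 (1.03, adjusted p = 0.0437). The latter was 0.11 with doublets removed (adjusted p = 0.934) and 0.13 without the TMM factors (adjusted p = 0.646). In male basal cells the RD mice had 1.53, 2.62 and 1.72 CPM and the HFD mice 3.45, 2.89 and 3.40 CPM, which did not overlap. The RNA of terminally differentiated cells would carry 1.61 to 2.56 CPM over the 6 mice, and its part in the difference was not tested. In male proliferating cells the carried amount was also close to the measured level, as given above, and its part was not tested. Most Il18 of the suprabasal or spinous class lay in the cluster led by Il1f6 in males and by Serpinb3a in females. The class estimates and their interaction depend on the share of these clusters in each mouse, which was not tested.

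In terminally differentiated cells of males, Il18 was 867, 888 and 968 CPM on RD and 1106, 923 and 1026 CPM on HFD, overlapping in 1 mouse of each group (0.57, SE 0.20, adjusted p = 0.133). DESeq2 called it (0.62, adjusted p = 0.0354), as did edgeR without RD replicate 3 (0.76, adjusted p = 0.0244), and with doublets removed the value was 0.061. After that new clustering the male terminally differentiated class held 2206 cells, against 1879 before. Removed doublets and changed membership were not told apart. Il1a in the same cells was 50.1, 44.8 and 59.2 CPM on RD and 78.4, 66.1 and 71.6 CPM on HFD, with all HFD mice above all RD mice (0.88, SE 0.21, adjusted p = 0.0627). Of 14 alternatives 5 called it: DESeq2 (adjusted p = 0.00718), no low-count filter (0.00112), the replicate number as a block (0.0182), and leaving out RD replicate 3 (1.15, 0.0118) or HFD replicate 2 (1.02, 0.0403). With doublets removed the value was 0.38, with an adjusted p of 0.827. In females Il1a was 149.7, 145 and 131 CPM on RD and 113, 152 and 102 CPM on HFD (-0.42, SE 0.26, adjusted p = 0.676), and the interaction of 1.40 (SE 0.37) had an adjusted p of 0.0932, and was called by DESeq2 (adjusted p = 0.0195), without the filter (0.00315) and without female RD replicate 2 (0.0170). This interaction was 0.82 with doublets removed (adjusted p = 0.605) and 0.70 without the TMM factors (adjusted p = 0.09). Here the scaling mattered: without the TMM factors of edgeR the median log2 fold change of all genes in this class was -0.49 in males and 0.22 in females, against -0.08 and 0.02 with them. Without the factors the male values were 0.49 for Il1a and 0.16 for Il18, with adjusted p of 0.0735 and 0.417.

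**Figure D4:**
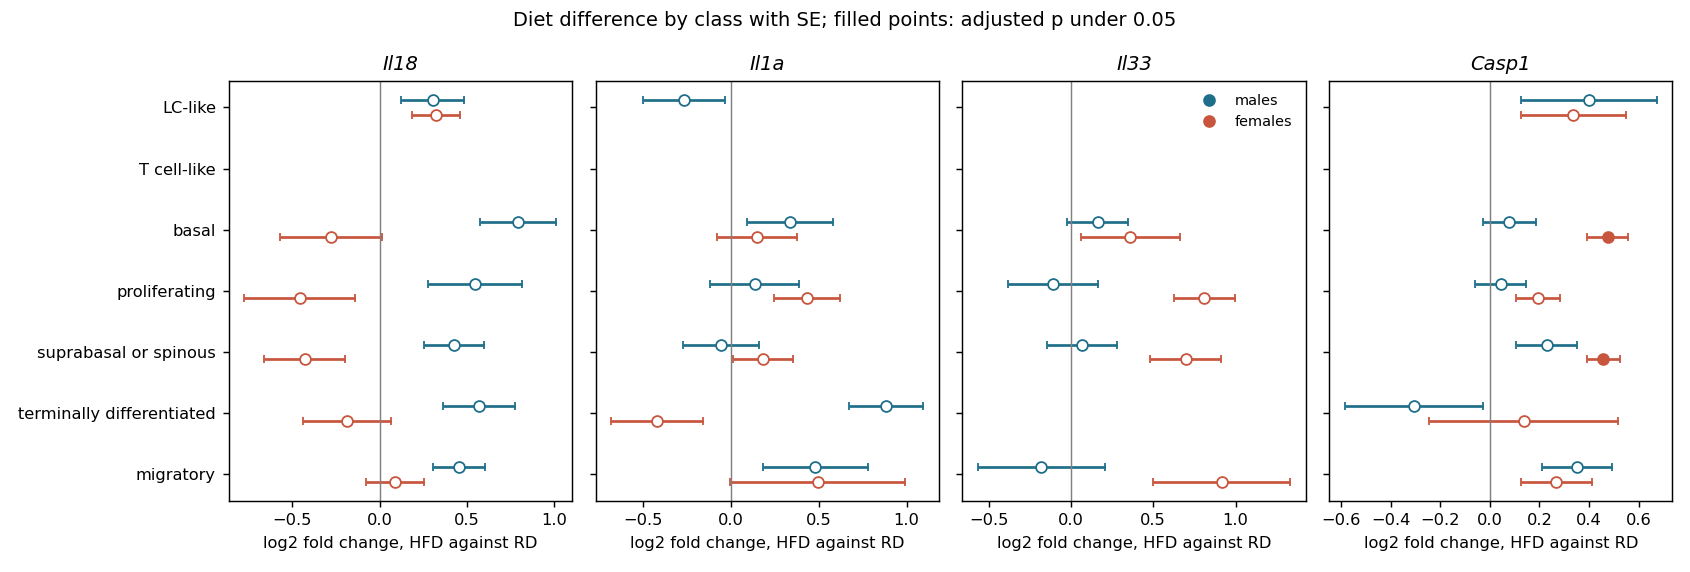
Log2 fold change of HFD against RD with its SE for Il18, Il1a, Il33 and Casp1 in each class where the gene could be tested, males in blue and females in red, n = 3 mice per group. Filled points have an adjusted p under 0.05 and are the female Casp1 values in the basal and the suprabasal or spinous classes.

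Il1b in LC-like cells was 149, 312 and 280.4 CPM on RD and 457, 287 and 336 CPM on HFD in males, where RD replicate 1 was lowest and HFD replicate 1 highest (0.52, SE 0.24, adjusted p = 0.875). It was 0.26 without RD replicate 1, 0.31 without HFD replicate 1 and 0.30 without the cells with keratins (adjusted p = 0.681). The female mice had 88.8, 149 and 101 CPM on RD and 113, 156 and 107 CPM on HFD (0.15, SE 0.19, adjusted p = 0.873), and 0.089 without the cells with keratins (adjusted p = 0.882). The groups overlapped in both sexes. Macrophage markers in the same cells summed to 334 to 480.4 CPM on RD and 419 to 711 CPM on HFD in males, and to 163 to 204 and 211 to 249 CPM in females, and their part in the Il1b values was not tested.

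Il33 in female proliferating cells was 1.64, 1.77 and 1.91 CPM on RD and 3.52, 3.44 and 2.57 CPM on HFD. These groups did not overlap, and the log2 fold change of 0.81 (SE 0.18) had an adjusted p of 0.055, while DESeq2 (adjusted p = 0.0449) and edgeR without the low-count filter (0.0106) called it. In female suprabasal or spinous cells it was 0.932, 0.901 and 1.12 CPM on RD and 1.95, 1.79 and 1.19 CPM on HFD, again without overlap (0.70, SE 0.22, adjusted p = 0.111). In male proliferating cells the values overlapped (2.46, 1.26 and 2.35 against 1.80, 1.64 and 2.08 CPM, -0.11, SE 0.27, adjusted p = 0.932), and the interaction in these cells was -0.93 (SE 0.33, adjusted p = 0.324).

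In the same test the antagonist and the receptors did not pass in any class. Il1rn in suprabasal or spinous cells was 61.9, 54.8 and 62.6 CPM on RD and 60.9, 60.4 and 54.3 CPM on HFD in males, and 25.4, 30.1 and 30.2 CPM on RD and 29.9, 15.6 and 27.5 CPM on HFD in females, overlapping in both. In female LC-like cells without the keratin subcluster Il1rn was 5.50, 5.92 and 8.76 CPM on RD and 1.23, 2.38 and 3.92 CPM on HFD, from 3 to 21 UMIs per mouse and without overlap (-1.56, SE 0.45, adjusted p = 0.115). With that subcluster the estimate was -0.60 (SE 0.31, adjusted p = 0.618). Il1r2 in LC-like cells overlapped as well, with 508, 509.6 and 626 CPM on RD and 676, 473 and 525 CPM on HFD in males (0.01, SE 0.16) and with 2193, 1659.8 and 1972 CPM on RD and 1948, 2157 and 1915 CPM on HFD in females (0.04, SE 0.13), at adjusted p of 0.999 and 0.956. Il1rap in female LC-like cells was 154, 128 and 115 CPM on RD and 112, 118 and 72.6 CPM on HFD (-0.40, SE 0.17, adjusted p = 0.540).

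Il1r1 in proliferating cells lay lower on HFD in both sexes without passing the test. Male RD mice had 5.01, 3.96 and 5.03 CPM and HFD mice 3.53, 3.46 and 3.61 CPM (-0.40, SE 0.15, adjusted p = 0.431). Female RD mice had 12.4, 11.3 and 12.4 CPM and HFD mice 8.51, 10.7 and 9.48 CPM (-0.37, SE 0.10, adjusted p = 0.0843). The groups did not overlap in either sex, and with doublets removed the male value was -0.22. In female LC-like cells Il1r1 lay higher on HFD, again without passing the test, at 8.74, 8.63 and 10.8 CPM on RD and 13.4, 15.7 and 11.1 CPM on HFD (0.49, SE 0.22, adjusted p = 0.563). Without the keratin subcluster these mice had 6.50, 9.62 and 10.8 CPM on RD and 14.3, 17.6 and 11.8 CPM on HFD, from 13 to 37 UMIs each (0.69, SE 0.28, adjusted p = 0.301), and neither set overlapped. The male LC-like estimate was -0.14 (SE 0.39, adjusted p = 0.976). In T cell-like cells Il1r1 and Il1r2 were the only members with enough UMIs to be tested, and only in females, where Il1r1 was 58.1, 42.2 and 19.5 CPM on RD and 15.3, 58.6 and 23.9 CPM on HFD (-0.27, SE 0.56, adjusted p = 0.967).

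The decoy receptor in terminally differentiated cells was 40.1, 46.2 and 58.8 CPM on RD and 50.2, 57.8 and 55.1 CPM on HFD in males, and 149, 115 and 126 CPM on RD and 112, 135 and 73.9 CPM on HFD in females, overlapping in both. Its log2 fold change was 0.55 (SE 0.21, adjusted p = 0.146) in males and -0.49 (SE 0.30, adjusted p = 0.676) in females, and without the TMM factors 0.17 and -0.27. The interaction was 1.14 (SE 0.41, adjusted p = 0.130), was called without the low-count filter (adjusted p = 0.0262) and without female RD replicate 2 (1.36, 0.0303), and was 0.45 without the TMM factors and 0.40 with doublets removed. The male change was called when RD replicate 3 was left out (0.87, adjusted p = 0.0154), and with doublets removed it was 0.0044 (adjusted p = 0.999). Without the low-count filter, Il1rn in male proliferating cells (-0.51, adjusted p = 0.0199) and Il1r2 in female proliferating cells (-0.54, adjusted p = 0.0221) were called. The diets also stood apart, with the test not passed, for Il18 in male migratory cells (0.45, adjusted p = 0.603), Il1a in female proliferating cells (0.43, 0.236), Il1rn in male proliferating cells (-0.51, 0.412), Il1r1 in male suprabasal or spinous cells (-0.34, 0.431), Il1r2 in male proliferating cells (-0.33, 0.398) and Casp1 in male terminally differentiated cells (-0.31, 0.529). Whether members stand apart more often than other genes was not tested.

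The diet effect on a member was tested against sex in 46 pairs, and edgeR called 0 of them, where 0.335% of all gene and class pairs were called. At an unadjusted p under 0.05 there were 10 of the 46, against 12.2% of all pairs, and DESeq2 called 1, against 1.88%.

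The wider pathway was followed in 58 further genes in 5 lists. Of the other ligands and antagonists, 1 of 27 gene and class pairs passed the test in males and 0 of 24 in females, and of the other receptors 0 of 11 and 0 of 15. Inflammasome and pyroptosis genes gave 0 of 32 pairs in males and 1 of 32 in females (Pycard), signaling genes 0 of 96 and 2 of 103, and target genes 2 of 54 and 0 of 62. The pairs called in males were higher on HFD, and the 2 signaling pairs in females were lower. Over all gene and class pairs 0.0561% were called in males and 1.09% in females, and these counts of 0 to 2 say nothing particular about a list.

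In male suprabasal or spinous cells, where 0.0609% of genes were called, Il1f6 (encoding the agonist IL-36α, 111 kb from Il1rn on chromosome 2) was 53.3, 59.4 and 56.1 CPM on RD and 81.6, 79.5 and 93.3 CPM on HFD. The log2 fold change was 0.65 (SE 0.074, adjusted p = 0.0385). Il1f6 also led 1 cluster of this class (2774 of its 28482 male cells). The class value therefore depends on the share of that cluster in each mouse, and its part in the difference was not tested. Lcn2, an antimicrobial iron-scavenging protein induced by NF-kB, was 4.58, 5.40 and 6.44 CPM on RD and 10.4, 10.1 and 10.0 CPM on HFD in the same cells (0.96, SE 0.12, adjusted p = 0.0385). Neither gene overlapped between the diets. Both calls were lost without the TMM factors, with the replicate block, in 1 fit of all 12 mice, with up to 10% mitochondrial UMIs and with doublets removed (adjusted p of Il1f6 up to 0.517), Lcn2 also with family genes kept for clustering, and on leaving out most single mice: Il1f6 was called without male RD replicate 2 only, and Lcn2 without RD replicate 2 or 3 only. Over all barcodes the median mitochondrial share was 3.09%, 3.15% and 3.40% in the male RD mice and 3.62%, 3.68% and 3.48% in the male HFD mice. Its part in the male diet differences was not tested.

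In male terminally differentiated cells, where 0.399% of genes were called, the β-defensin gene Defb4 was 3.92, 1.47 and 1.27 CPM on RD and 7.71, 5.10 and 6.72 CPM on HFD, without overlap (1.84, SE 0.35, adjusted p = 0.0312). It was not called without RD replicate 2, HFD replicate 1 or HFD replicate 3, with adjusted p up to 0.228, nor in 1 fit of all 12 mice, with up to 10% mitochondrial UMIs, with doublets removed or with family genes kept for clustering, with adjusted p up to 0.815.

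Of the female signaling pairs, Tollip, an adaptor that restrains IL-1 receptor signaling, was 45.9, 46.8 and 44.2 CPM on RD and 37.8, 38.4 and 36.9 CPM on HFD in proliferating cells (-0.30, SE 0.064, adjusted p = 0.0485), where 1.72% of genes were called. Tab2, a subunit that couples the TAK1 kinase to its upstream signal, was 115, 114 and 113 CPM on RD and 86.5, 106 and 87.7 CPM on HFD in suprabasal or spinous cells (-0.34, SE 0.063, adjusted p = 0.0321). Neither gene overlapped between the diets. Leaving out HFD replicate 2 kept both calls, and leaving out any other single mouse or the TMM factors ended both. The replicate block ended both as well, and Tollip was also lost with doublets removed and with family genes kept for clustering.

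The diet effect differed between the sexes for 2 of these genes, both in suprabasal or spinous cells, where 1.49% of genes were called in the interaction. For Il1f6 it was 1.22 (SE 0.24, adjusted p = 0.0306), with female values of 28.2, 41.2 and 36.5 CPM on RD and 29.8, 27.5 and 16.4 CPM on HFD, which overlapped. For Gsdma, a pore-forming gasdermin of keratinocytes, it was 0.77 (SE 0.17, adjusted p = 0.0393), with 35.1, 41.5 and 34.8 CPM on RD and 52.0, 47.5 and 54.4 CPM on HFD in males and 18.9, 15.6 and 18.4 against 17.9, 13.0 and 14.8 CPM in females, where the groups overlapped. Leaving out single mice kept the call for Il1f6 in 6 of 12 cases and for Gsdma in 2 of 12, with adjusted p up to 0.0847 and 0.110. With up to 10% mitochondrial UMIs both were lost, and Il1f6 was lost with the replicate block, with adjusted p up to 0.109. Sex and counting software coincide here as well, and the part of the male cluster led by Il1f6 in the interaction was not tested.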

How the data were processed

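Epidermal cells of 12 mice were profiled with 10x Genomics libraries. The deposited files hold UMI counts per gene and barcode, made by the authors with Cell Ranger (7.2.0 per the labels for all samples, 6.1.0 in the headers of the male tables). The study's analysis used Seurat 5.0.0. Whether intronic reads were counted is not given in the sources used here. Cells were kept with 200 (males) or 500 (females) to 6000 genes and at most 5% mitochondrial UMIs, the limits that the study gives. In males these limits kept 37248 RD and 24899 HFD cells, fewer than the study reports, so that the male cells used here are not the same set. Each sex was clustered on 2000 variable genes, 10 principal components and 20 neighbours (leidenalg 0.10.2), and classes needed 3 markers. No doublets were removed in the values given, and a doublet caller was an alternative. Counts were summed per mouse and class and tested with edgeR 4.0.16 (quasi-likelihood, TMM, filterByExpr, Benjamini-Hochberg), with DESeq2 1.42.0 as an alternative. CPM is a gene's UMIs over all UMIs of the class, times 1000000, without TMM factors. SE is the log2 fold change divided by the square root of F. The steps were tested on simulated counts of the LC-like, T cell-like and basal classes. Within a sex, 2-fold changes were called in 26.2% (male T cell-like) to 92.5% (male basal) of cases, with 61.2% in male LC-like cells. In the interaction they were called in 8% (T cell-like), 36.5% (LC-like) and 72.9% (basal) of cases. False calls made up 1.92% to 7.91% of calls. Changes under 2-fold were not simulated. Named genes are the members, any gene of the 5 lists called in a class, and the 3 genes most alike each member over the 14 class means of both sexes. The members and lists were chosen with earlier results of these data known. The replicate numbers were not used to pair mice, as the labels pair none and every pair of a class correlated over 0.1 in only 1 of 14 class and sex combinations. Whether mice of the same number were handled together is not known.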

Additional observations from a re-analysis of the deposited data

Results flagged for a closer look

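In 18 groups of 6 mice, 1 for each member's first class in each sex, 2 held a mouse set apart from the others by a gap above Dixon's critical value for 6 samples. Such a gap is reached by chance in about 1 of 20 groups. Il1rn in female suprabasal or spinous cells was 15.6 CPM in HFD replicate 2, a gap of 0.672 of the range of the 6 mice. Il1r1 in male T cell-like cells was 62.0 CPM in HFD replicate 2, a gap of 0.663 of the range, in a class with 16 Il1r1 UMIs over the 6 mice.

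Among the pathway genes, the diet effect differed between males and females in suprabasal or spinous cells for Il1f6 (interaction 1.22 on the log2 scale, adjusted p = 0.0306) and for Gsdma (interaction 0.77, adjusted p = 0.0393). The call for Il1f6 was lost without male RD replicate 1 or 3, male HFD replicate 1 or 2, or female RD replicate 2 or 3, and that for Gsdma without any single mouse but male RD replicate 2 and female HFD replicate 1. Both were also lost with up to 10% mitochondrial UMIs, and Il1f6 with the replicate block. Sex and the version of the counting software cannot be told apart in these 12 mice. The class pools several clusters, 1 of them led by Il1f6 in males, and its share per mouse was not compared.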

How the results depend on the processing

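The class that came first for each member was the same with doublets removed, with family genes kept for clustering and with medians over mice, and with up to 10% mitochondrial UMIs for all members but Il1rn in males. Called pairs of a member and a class numbered 0 in males, where DESeq2 gave 2, no low-count filter 3 and leaving out 1 mouse 0 to 3. The 2 pairs of females became 3 with DESeq2, 4 without the filter and 0 to 2 on leaving out 1 mouse. The 0 pairs of the interaction became 1 with DESeq2, 4 without the filter and 0 to 3 on leaving out 1 mouse. The cause was not tested. With the replicate number as a block, 1 pair was called in males (Il1a in terminally differentiated cells) and 1 in females, the basal Casp1 call of females being lost at an adjusted p of 0.0861, and calls over all genes went from 37 to 259 in males, from 860 to 182 in females and from 266 to 69 in the interaction. The labels pair no mice, and correlations of same-numbered mice ran from -0.235 to 0.289 in males and -0.348 to 0.140 in females. Some estimates near 0 changed sign without being called. On leaving out 1 mouse, Il1b in female LC-like cells ran from -0.042 to 0.38, Il1r2 in male LC-like cells from -0.16 to 0.099 and in females from -0.069 to 0.13. Il1r2 in male LC-like cells was also -0.0026 with DESeq2, -0.013 without the filter, -0.0037 with the block, -0.017 in 1 fit of all 12 mice, -0.19 with doublets removed and -0.17 without the keratin subcluster. Few UMIs (T cell-like cells, Il33) limited the tests, and 16 or 17 of 63 pairs were not tested.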
